A study of Mus musculus with 46 samples.

Results

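The type 2 deiodinase gene Dio2 and 7 further genes of thyroid hormone handling were followed across 46 single cells from the mouse cochlea. The 7 genes were Dio3, Slco1c1, Slco1a4, Slc16a10, Slc7a5, Slc7a8 and Crym. They were chosen by symbol, and all 8 had a row among the 29871 genes of the table. Every cell came from C57BL/6 mice at postnatal day 10 with the genotype Dio2creERt2:Ai6, heterozygous for the Dio2-CreERt2 allele. This allele puts a tamoxifen-inducible Cre recombinase under control of Dio2, and Ai6 is a reporter that turns on a green fluorescent protein where Cre has acted and in the descendants of those cells. Fluorescence is therefore a record of past Cre activity and not a measure of Dio2 mRNA at the time of collection. All cells were picked for fluorescence after papain dissociation, and no unlabelled or wild-type cells were analysed here. The timing of tamoxifen is not stated in the labels. The study was made to define the cochlear cell types that express Dio2.

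Thyroid hormone reaches its nuclear receptors in several steps. Transporters carry thyroxine (T4) and triiodothyronine (T3) across the plasma membrane, the type 2 deiodinase converts T4 into the more active T3 inside the cell, and the type 3 deiodinase inactivates both hormones. The cochlea depends on local T3 production by Dio2 for hearing to develop, and in the rodent cochlea Dio2 is known mainly from connective tissue and not from the sensory epithelium.

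The cells were divided by the CPM (reads per 1000000 reads of the library) of 3 other genes. There were 12 osteoblasts (Ibsp, bone sialoprotein, at 1000 CPM or more), 9 Otos-high cells (Otos, otospiralin, at 1000 CPM or more), 4 macrophages (C1qb, a complement chain, at 500 CPM or more) and 21 remaining cells, called the rest. No cell passed 2 of these limits. The lowest Ibsp inside the osteoblasts was 7618 CPM and the highest outside was 107 CPM. For Otos these values were 1213 and 112 CPM, and for C1qb 3048 and 148 CPM. Osteoblasts held 6 to 9 of 9 osteoblast markers, Otos-high cells 8 of 8 fibrocyte markers and macrophages 6 or 7 of 7 macrophage markers. Each list includes the gene that defined the class (Ibsp, Otos or C1qb), so that marker was present by construction. The rest is not 1 cell type, since its cells held 0 to 8 of the fibrocyte markers and 0 to 5 of the osteoblast markers. The class also follows the numbering of the cells, because cells 1 to 12 are the osteoblasts and cells 43 to 46 the macrophages, so class and the numbering, or anything that goes with it, cannot be told apart.

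Each cell had 2522853 to 10350249 reads in the listed genes (median 4789573), and 1 read was worth 0.0870 to 0.347 CPM. Reads are not molecules, because the libraries carry no molecular identifiers. Intervals cover counting error only. The labels name no animal, so all 46 cells are 1 sample, no difference between cells has a replicate check, and no test was made. A gene was called detected in a cell at 10 CPM or more. Abundant genes leave a trace in cells that should lack them. For Ibsp the median outside the osteoblasts was 27.6 CPM, which is 0.217% of its mean over all cells. The limit of 10 CPM lies above 1% of the mean of 7 of the 8 genes. For Slco1c1 that level is 10.9 CPM, but no cell had a value between 7.86 and 503.7 CPM.

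Dio2 (NCBI Gene 13371) lies on chromosome 12 of GRCm38, minus strand, 90724552 to 90738438 in the GENCODE M21 annotation. RefSeq places the transcription start further upstream. The 250 bases before the RefSeq start are shown because they hold elements of a regulated promoter. The first block of capitals is a cAMP response element (TGACGTCA), a site through which Dio2 is known to respond to cAMP, and the second is a TATA box (TATAAA). The window covers chr12:90739039-90739288 on the minus strand (RefSeq, GRCm38.p6).
Dio2: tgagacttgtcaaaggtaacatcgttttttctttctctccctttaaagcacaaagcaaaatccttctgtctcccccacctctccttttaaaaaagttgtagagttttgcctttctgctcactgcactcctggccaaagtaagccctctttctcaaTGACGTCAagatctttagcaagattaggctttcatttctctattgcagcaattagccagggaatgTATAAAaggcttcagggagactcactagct
The first element spans bases -95 to -88 and the second bases -30 to -25 from the start. Searched on both strands, TGACGTCA was in 1.55% and TATAAA in 12.4% of 32851 windows of this length. Among the 6 genes of the set with a window, the first was found for Dio2 alone and the second for Dio2 and Dio3.

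Dio2 was detected in 23 of the 46 cells (50%, exact Clopper-Pearson 95% interval 34.9% to 65.1%). In the 12 osteoblasts it ranged from 0.195 CPM over a median of 65.5 to 545 CPM, and 8 of 12 were at the limit or above (66.7%, 34.9% to 90.1%). The osteoblasts split cleanly, with 4 cells at or below 0.694 CPM and the other 8 at or above 27.6 CPM. In the 9 Otos-high cells Dio2 ran from 0 over a median of 25.5 to 599.8 CPM, with 5 of 9 detected (55.6%, 21.2% to 86.3%). Those 5 cells included the highest level of the series, in cell 24. The macrophages 43 to 46 had 0.465, 0.194, 0.404 and 0.432 CPM, so Dio2 was detected in 0 of 4, which allows a share of up to 60.2%. These values are 1 or 2 reads per cell. In the rest the lowest value was 0.144, the median 5.63 and the highest 217 CPM, with 10 of 21 detected (47.6%, 25.7% to 70.2%).

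The mean log2(CPM + 1) of Dio2 was 4.79 ± 3.35 in osteoblasts (SD over cells, n = 12), 4.44 ± 3.68 in Otos-high cells (n = 9), 0.45 ± 0.13 in macrophages (n = 4) and 3.79 ± 2.77 in the rest (n = 21). Osteoblasts, Otos-high cells and the rest overlap almost fully and their means lie within 1 SD of each other. The macrophages were lowest on average, but their values overlap those of the Dio2-undetected cells of every other class. Within each of the other 3 classes Dio2 spanned from 0 to 2 reads up to 217 CPM or more. The split was less sharp in the rest, where 6 of 21 cells lay between 1 and 10 CPM, and 1 Otos-high cell (cell 25, 7.41 CPM) lay there too. As all cells were picked for fluorescence, an undetected Dio2 mRNA does not say that the cell never expressed the gene.

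**Figure D1:**
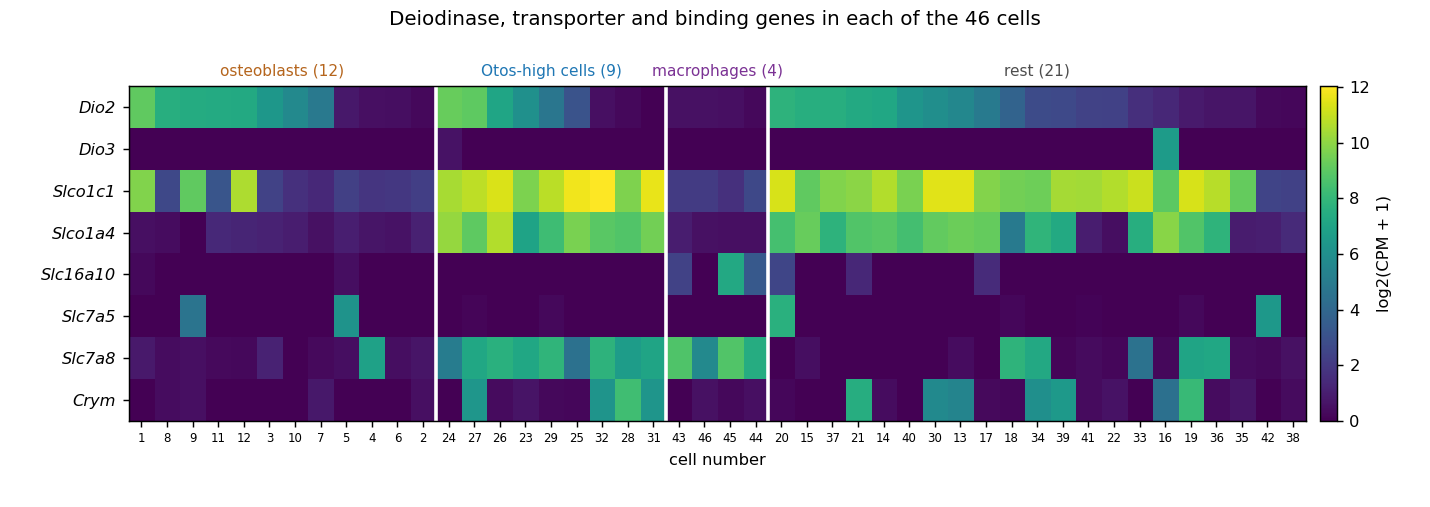
Levels of the 8 genes (rows, as log2(CPM + 1), colour scale from 0) in each of the 46 cells (columns, by cell number), grouped by class and sorted by Dio2 within a class. Dio2 is present in 8 of 12 osteoblasts while the Slco1c1 and Slco1a4 rows are filled in the Otos-high cells and most of the rest.

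Dio3, the inactivating deiodinase gene (chromosome 12, plus strand, 110279068 to 110281097), was detected in 1 cell, cell 16 of the rest, at 95.9 CPM, and the highest value elsewhere was 0.522 CPM. Cell 16 had Dio2 at 1.505 CPM, so Dio2 and Dio3 were not detected together in any cell (0 of 46). With a single Dio3 cell this count cannot show whether the 2 genes avoid each other.

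Slco1c1 encodes OATP1C1, a high-affinity transporter of T4 known from brain capillaries and glia. Slco1a4 encodes OATP1A4, an organic anion transporter that also carries T4 and T3 in rodents. The genes lie 235 kb apart on chromosome 6, Slco1c1 on the plus strand from 141524368 to 141570177 and Slco1a4 on the minus strand from 141805440 to 141856199 (GENCODE M21, GRCm38). Their upstream windows are shown because the genes were found in the same cells and the windows share a run of 14 bases, CTGATTGGAAGGAG, given in capitals. The windows are chr6:141524104-141524353 on the plus strand and chr6:141856221-141856470 on the minus strand (RefSeq, GRCm38.p6).
Slco1c1: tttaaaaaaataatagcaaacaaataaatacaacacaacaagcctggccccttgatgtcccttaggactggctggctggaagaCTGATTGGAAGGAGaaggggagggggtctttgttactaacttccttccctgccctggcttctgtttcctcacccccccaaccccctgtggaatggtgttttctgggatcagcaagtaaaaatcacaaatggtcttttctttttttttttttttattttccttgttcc
Slco1a4: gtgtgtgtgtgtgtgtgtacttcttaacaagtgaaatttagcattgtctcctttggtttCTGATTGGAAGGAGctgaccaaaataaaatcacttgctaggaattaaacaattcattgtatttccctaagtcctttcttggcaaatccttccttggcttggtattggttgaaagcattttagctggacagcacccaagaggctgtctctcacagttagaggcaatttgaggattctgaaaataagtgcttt
The run was looked for after the sequences had been seen. On either strand it occurs in 2 of the 32851 windows, which are these 2. It contains ATTGG, the reverse complement of the core of a CCAAT box, which by itself is in 33.8% of windows. The longest shared run of the other 14 pairs among the 6 genes was 7 to 13 bases. No function of the run was measured.

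Slco1c1 was detected in 31 of 46 cells (67.4%, 52.0% to 80.5%). In the osteoblasts it ranged from 1.63 over a median of 4.002 to 1510 CPM. Only cells 1, 9 and 12, at 863, 539 and 1510 CPM, were above the limit there, and the other 9 were at or below 7.86 CPM. All 9 Otos-high cells had it, from 815 over a median of 1814 to 4171 CPM. The macrophages 43 to 46 had 3.26, 5.04, 2.22 and 3.24 CPM, below 1% of the mean of the gene. In the rest it ran from 4.04 over a median of 971 to 2900 CPM and was detected in 19 of 21 cells (90.5%, 69.6% to 98.8%). The 2 cells of the rest without it were cells 38 and 42.

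Slco1a4 was detected in 25 cells (54.3%, 39.01% to 69.1%). It was in 0 of 12 osteoblasts, where the highest value was 1.62 CPM, in 9 of 9 Otos-high cells (124 to 1573 CPM, median 521.5 CPM), in 0 of 4 macrophages (at most 0.931 CPM) and in 16 of 21 cells of the rest (at most 962 CPM, median over all 21 cells 236 CPM). The groups with and without the gene are far apart, because the lowest detected value was 29.8 CPM and the highest undetected value 1.73 CPM. Every one of the 25 Slco1a4 cells also held Slco1c1, which is 80.6% of the Slco1c1 cells. All 25 were Otos-high or rest cells, of which 28 of 30 held Slco1c1. The 6 cells with Slco1c1 but without Slco1a4 were the 3 osteoblasts and cells 22, 35 and 41 of the rest. Paralogs of Slco1a4 could take some of its reads: 1.56% of the 50-base words of its transcripts also occur in Slco1a5 transcripts and 1.31% in those of Slco1a1, against 0% for Slco1c1 with any of the 5 Slco1 paralogs examined.

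Per kilobase of annotated exon, which allows levels of different genes to be set side by side, the mean over all cells was 209.6 CPM for Slco1c1, 42.3 for Slco1a4, 14.5 for Dio2, 13.3 for Slc7a8 and 8.19 for Crym. The others had 2.21 (Slc7a5), 1.03 (Dio3) and 0.521 (Slc16a10) CPM per kilobase. These means pool classes, and those of Slc16a10 and Dio3 rest almost wholly on 1 cell each. In macrophages the mean per kilobase was 53.3 CPM for Slc7a8, 5.70 for Slc16a10 and 0.663 for Slco1c1. In osteoblasts the median per kilobase was 11.3 CPM for Dio2 and 0.772 for Slco1c1. The annotation the authors counted with is not given, so these lengths are those of GENCODE M21.

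**Figure D2:**
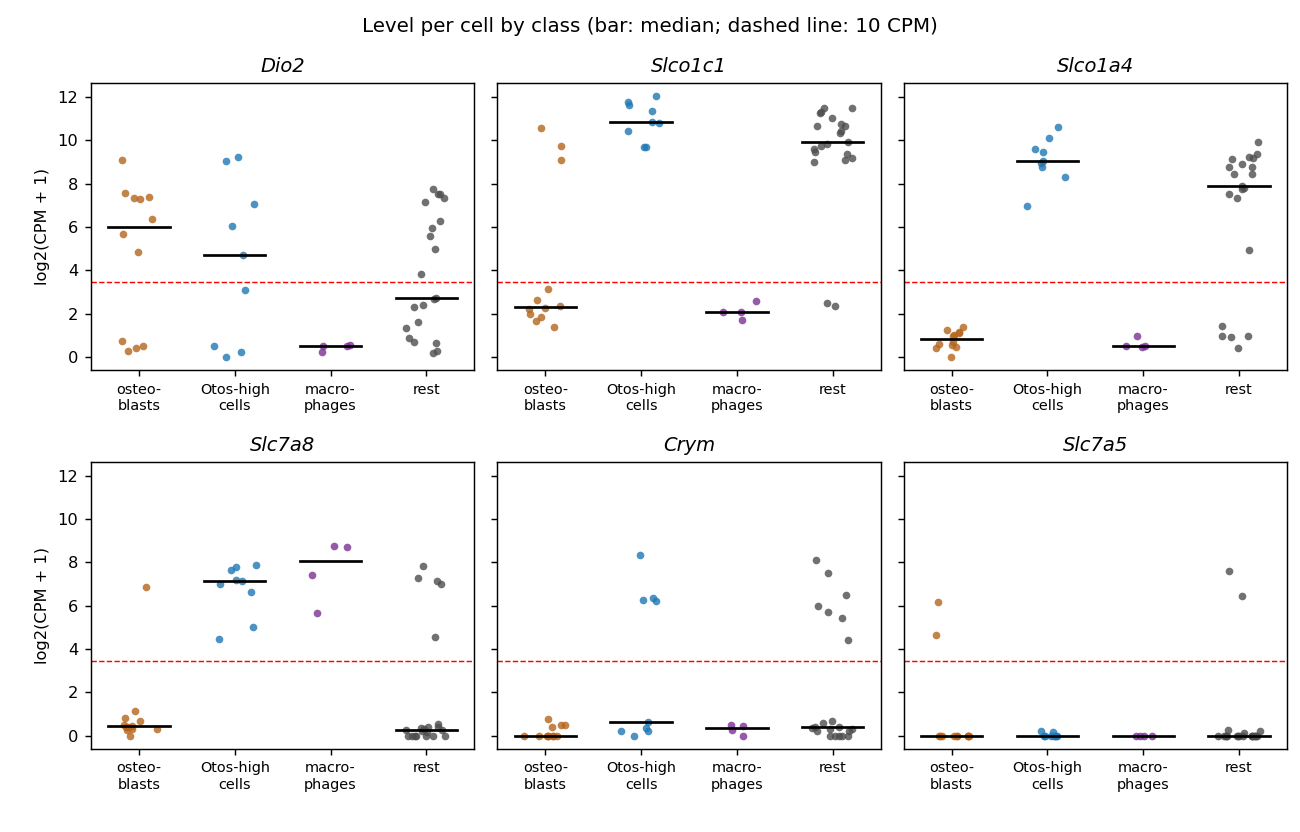
Level of 6 of the genes in each cell, as log2(CPM + 1), by class (osteoblasts, Otos-high cells, macrophages, rest), with a black bar at the median and a dashed line at 10 CPM. Each point is 1 cell, with sideways jitter. Slco1c1 has no value between 7.86 and 503.7 CPM and Slco1a4 none between 1.73 and 29.8 CPM, while Dio2 in the rest is spread across the limit.

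Slc7a8 and Slc7a5 encode LAT2 and LAT1, light chains of amino acid transporters that also carry thyroid hormones. In GENCODE M21 (GRCm38) Slc7a8 lies on chromosome 14, 54722209 to 54781946, and Slc7a5 on chromosome 8, 121881150 to 121907694, both on the minus strand. Slc7a8 was detected in 19 cells (41.3%, 27% to 56.8%). It was in 1 of 12 osteoblasts (cell 4, 115 CPM), in 9 of 9 Otos-high cells (21.1 to 230.0 CPM, median 140.5 CPM), in 4 of 4 macrophages and in 5 of 21 cells of the rest (at most 228.5 CPM). The macrophages 43 to 46 had 417, 171, 429 and 48.8 CPM. Slc7a8 was the only gene of the set detected in every macrophage. Slc7a5 was detected in 4 cells (8.70%, 2.42% to 20.8%), at 71.5 CPM in cell 5, 24.1 in cell 9, 195 in cell 20 and 85.4 in cell 42. Cells 5 and 9 are osteoblasts. Cells 20 and 42 belong to the rest by their low Ibsp, but held 5 of the 9 osteoblast markers. So Slc7a5 was found in 4 of the 15 cells with at least 5 osteoblast markers and in 0 of the 31 others, a division chosen after the values had been seen. No cell held both light chain genes (0 of 46). With Slc7a5 in only 4 cells, and Slc7a8 absent from 27 of 46, this count cannot show whether the 2 genes avoid each other. Slc7a5 overlaps a gene on the opposite strand in the annotation, and whether reads were counted by strand is not given.

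Both light chains need the heavy chain 4F2hc, encoded by Slc3a2, to reach the membrane. Slc3a2 was detected in 34 of 46 cells. It was present in all 4 Slc7a5 cells (150.1 to 349.5 CPM), against 30 of the 42 cells without Slc7a5. Among Slc7a8 cells it was in 16 of 19, against 18 of the 27 cells without Slc7a8. The heavy chain was thus widespread and also found where neither light chain was.

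Crym encodes mu-crystallin, a cytosolic protein that binds T3, and Slc16a10 encodes MCT10, a transporter of aromatic amino acids and of T3 and T4. Crym lies on chromosome 7, 120186380 to 120202111, and Slc16a10 on chromosome 10, 40033532 to 40142258, both on the minus strand. Crym was detected in 11 cells (23.9%, 12.6% to 38.8%), which were 0 of 12 osteoblasts, 4 of 9 Otos-high cells, 0 of 4 macrophages and 7 of 21 cells of the rest. Its detected values ran from 20.4 to 318 CPM, and the highest undetected value was 0.697 CPM. Every Crym cell also held Slco1c1 and Slco1a4 (11 of 11), which is 35.5% of the Slco1c1 cells and 44% of the Slco1a4 cells. Most cells of these 2 classes held both Slco genes with or without Crym (25 of the 30 Otos-high and rest cells). Slc16a10 was detected in 1 cell, macrophage 45, at 155 CPM. The macrophages 43, 44 and 46 had 4.19, 9.10 and 0 CPM, so 2 of them lay below the limit but above every cell of the osteoblasts and Otos-high cells, where the highest value was 0.347 CPM. The rest reached 4.69 CPM.

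Of the 5 genes of the set detected in at least 5 cells, 3 had a mean log2(CPM + 1) lower by at least 2 in osteoblasts than in the rest: Slco1a4 (-5.77), Slco1c1 (-5.42) and Crym (-2.07). Among all 10296 genes detected in at least 5 cells, 5.09% were lower by that much and 6.93% were higher, and the median difference was 0.11. Dio2 (0.997) and Slc7a8 (-0.74) did not reach that size. Crym was near it, and was at -1.04 with a pseudocount of 10 and at -1.85 without the 5 cells of the rest that held 3 or more osteoblast markers, an alternative chosen after seeing the data. Otos-high cells exceeded the rest by at least 2 for 2 of the 5 genes, Slc7a8 (4.99) and Slco1a4 (2.52), where 6.3% of all genes did; none of the 5 was lower by 2, as 4.67% of all genes were. Slco1c1 (1.42), Crym (0.93) and Dio2 (0.65) were higher by less. With a pseudocount of 10 Slco1a4 was at 1.91. In macrophages 3 of the 5 were lower than in the rest, Slco1c1 (-7.38), Slco1a4 (-5.97) and Dio2 (-3.34), where 16.4% of all genes were. With a pseudocount of 10 Dio2 was at -1.65 there. Slc7a8 was higher there (5.88), as were 14.1% of all genes. With 1 sample these are differences between cells only.

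Taking each cell on its own, Dio2 was found with Slco1c1 in 18 cells. That is 18 of the 23 Dio2-detected cells (78.3%, 56.3% to 92.5%), against 13 of the 23 other cells (56.5%, 34.5% to 76.8%). Slco1a4 was in 15 of the 23 Dio2-detected cells (65.2%, 42.7% to 83.6%), against 10 of the 23 others (43.5%, 23.2% to 65.5%). Both genes thus had a share at least 20 percentage points higher in the Dio2-detected cells, as did 10.8% of the 10295 genes compared. Slc7a8 went the other way, with 6 of 23 Dio2-detected cells (26.1%, 10.2% to 48.4%) and 13 of 23 others (56.5%, 34.5% to 76.8%). A share at least 20 points lower was found for 3.8% of genes. Crym was in 4 of 23 Dio2-detected and 7 of 23 other cells. Slc7a5 was in 2 of 23 of each, and Slc16a10 was not found with Dio2 at 10 CPM. At a limit of 1 CPM Slc16a10 and Dio2 were together in 3 cells, cells 17, 20 and 21, with Slc16a10 at 1.83, 4.69 and 1.53 CPM. All of these intervals overlap between the Dio2-detected and the other cells. For Slc7a5 and Slc16a10, detected in 4 cells and 1 cell, they would overlap at any split. The 4 macrophages are all among the cells without Dio2. Without them the differences were 9.84 points for Slco1c1 and 12.6 for Slco1a4, no longer 20, and -21.3 for Slc7a8. The Dio2-detected cells had 3351 to 7143 genes at 1 CPM or more (median 5335), the others 3448 to 6894 (median 4819). The part of that difference in the shares was not tested. With every cell thinned to 2522853 reads, the counts of 18, 15 and 6 cells stayed at 18, 15 and 6. Thinning could change few calls, because the values nearest the limit lay apart (13.1 and 7.41 CPM for Dio2). It is no check on the difference in genes per cell.

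**Figure D3:**
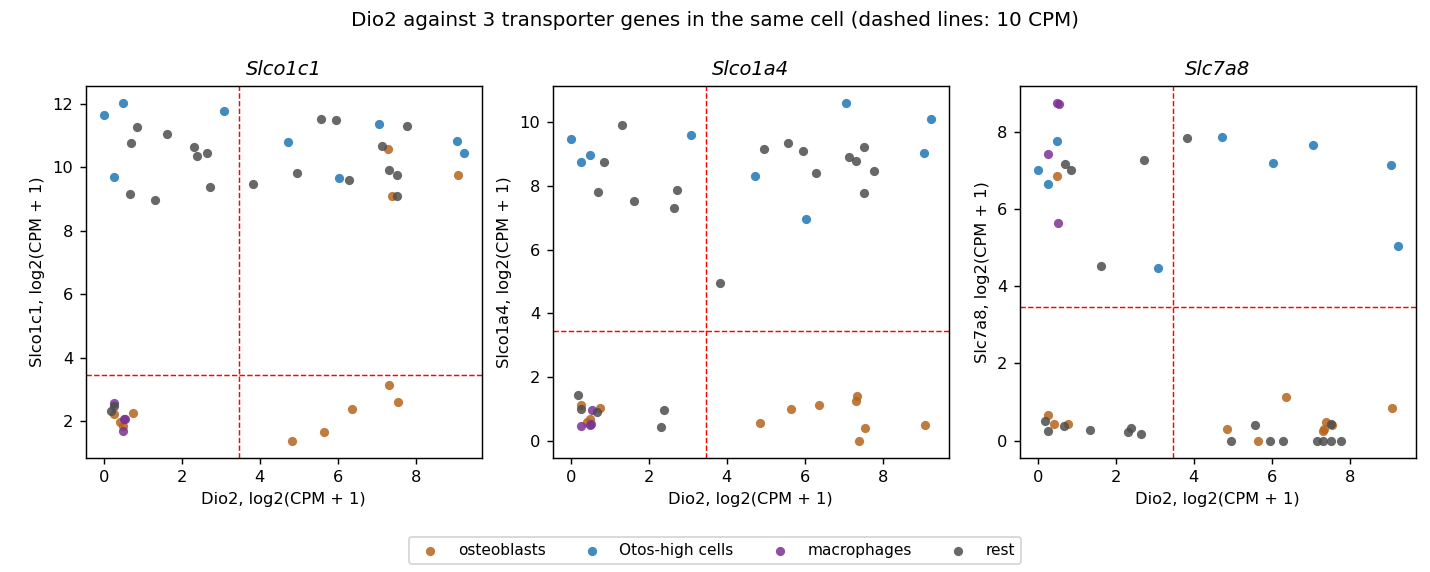
Dio2 (horizontal axis) against Slco1c1, Slco1a4 and Slc7a8 (vertical axes) in the same cell, all as log2(CPM + 1), 1 point per cell coloured by class, with dashed lines at 10 CPM. The upper right field of the Slco1c1, Slco1a4 and Slc7a8 panels holds 18, 15 and 6 cells with both genes, and the lower right field of the Slco1a4 panel holds 8 cells, all osteoblasts.

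The overall shares mix classes that differ in the transporters, so the classes were read one by one. In osteoblasts Slco1c1 was in 3 of 8 Dio2-detected cells (37.5%, 8.52% to 75.5%), against 0 of 4 others (0% to 60.2%). Slco1c1 was in too few osteoblasts for the comparison over genes, in which 17% of 5004 genes had a share at least 20 points higher in Dio2-detected osteoblasts and 31.6% a lower one. The 3 were cells 1, 9 and 12, with Dio2 at 545, 166 and 157 CPM. Cell 1 had the highest Dio2 of the osteoblasts, but cells 8 and 11, with Dio2 at 186 and 160 CPM, had Slco1c1 at only 5.16 and 7.86 CPM. Otos in cells 1, 9 and 12 was at 22.2, 61.4 and 20.97 CPM, within the range of the other osteoblasts (11.98 to 108 CPM), and they held 5, 4 and 2 of the 8 fibrocyte markers, against 3 to 5 in the other osteoblasts. The other 5 Dio2-detected osteoblasts had none of the 5 transporter genes of the set (Slco1c1, Slco1a4, Slc16a10, Slc7a5 and Slc7a8) at 10 CPM. Dio2 alone was the most frequent combination among osteoblasts, in 5 of 12.

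In the Otos-high cells Slco1c1, Slco1a4 and Slc7a8 were in 5 of 5 Dio2-detected and in 4 of 4 other cells, so their presence did not vary with Dio2. Crym was in 1 of 5 Dio2-detected cells (20%, 0.505% to 71.6%) and in 3 of 4 others (75.0%, 19.4% to 99.4%). Of the rest, 10 of 10 Dio2-detected cells held Slco1c1 (100%, 69.2% to 100%), against 9 of 11 others (81.8%, 48.2% to 97.7%). All 10 also held Slco1a4, against 6 of 11 others (54.5%, 23.4% to 83.3%). In the rest 25.5% of 7172 genes had a share higher by at least 20 points in Dio2-detected cells, and 9.84% a lower one. Slc7a8 was in 1 of 10 Dio2-detected cells of the rest, against 4 of 11 others.

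All 15 Dio2-detected cells outside the osteoblasts therefore held both Slco1c1 and Slco1a4, while 10 of the 15 Dio2-undetected Otos-high and rest cells did. The Slco1a4 difference of 33.3 points stands beside a background in which 26.6% of the 8615 genes compared in these 30 cells had a share at least 20 points higher in the Dio2-detected cells and 7.03% a lower one. Crym was lower by 20 points, in 4 of 15 Dio2-detected cells and 7 of 15 others. Genes at 1 CPM or more numbered 5533 (median) in these Dio2-detected cells and 4773 in the others, and the part of this in the shares was not tested. The 5 cells without Slco1a4 were cells 22, 35, 38, 41 and 42 of the rest. They held 4, 6, 3, 2 and 0 of the fibrocyte markers, against 2 to 8 (median 5) in the 16 cells of the rest with Slco1a4. At a limit of 1% of each gene's mean, and at least 1 CPM, Dio2 was called in 16 cells of the rest and 14 of them held Slco1a4, so the complete overlap ends there, with cells 22 and 41 (Dio2 at 3.93 and 4.26 CPM) as the exceptions.

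**Figure D4:**
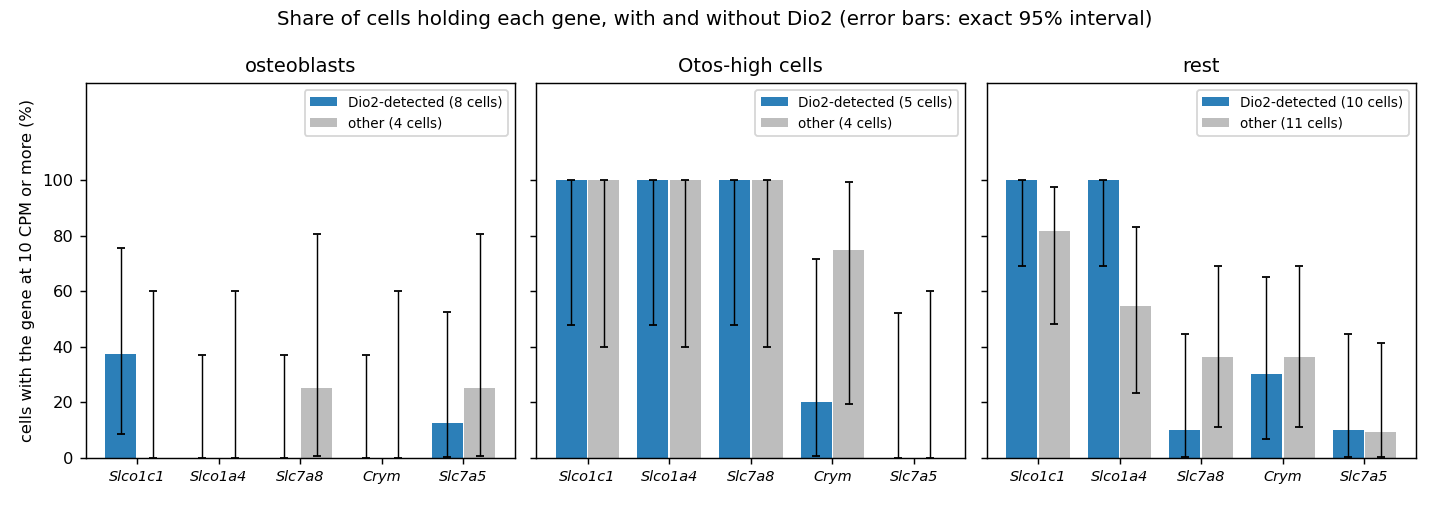
Percentage of Dio2-detected cells (blue) and of other cells (grey) that held each of 5 genes at 10 CPM or more, in osteoblasts, Otos-high cells and the rest; error bars are exact 95% intervals. Slco1a4 is at 0% in both kinds of osteoblasts and at 100% in both kinds of Otos-high cells, and the intervals overlap for every pair. In the Otos-high cells the overlap says nothing, because even 5 of 5 (from 47.8%) and 0 of 4 (up to 60.2%) overlap.

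Of 18 further genes of hormone transport, activation and binding, 5 were detected in at least 3 cells, 8 in no cell, and 5 of those 8 had no read in any cell. Dio1, the deiodinase of liver and kidney, was among the 5 without a read. Slco3a1, another organic anion transporter gene, was in 11 of 12 osteoblasts (median 215 CPM), 8 of 9 Otos-high cells (129.97 CPM), 0 of 4 macrophages and 9 of 21 cells of the rest (0.511 CPM). It was in 18 of 23 Dio2-detected cells and 10 of 23 others, where 10.8% of 10295 genes had a share higher by at least 20 points. Without the macrophages, none of which had Dio2, it was in 18 of 23 and 10 of 19 (25.6 points). By class, Slco3a1 was in 6 of 10 Dio2-detected cells of the rest and 3 of 11 others, and in 5 of 5 and 3 of 4 Otos-high cells. In osteoblasts the direction was the other way, with 7 of 8 and 4 of 4. Of the 5 Dio2-detected osteoblasts without a transporter gene of the set, 4 held Slco3a1, and cell 8, which had no Slco3a1 read, was the remaining one. Slco2b1, whose product also carries organic anions, was in all 4 macrophages at 440 to 1458 CPM and in 2 cells of the rest. Slco1a5, a neighbour of Slco1a4, was in 3 of 9 Otos-high cells and 2 of 21 of the rest, up to 301 CPM.

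Across all 46 cells, the 5 genes whose log2(CPM + 1) followed Dio2 most closely among 7023 were Znhit2 (Pearson's r = 0.51), Lias (0.50), Sesn3 (0.50), Tm7sf2 (0.49) and Mrpl2 (0.49). The median r over genes was 0.05 and the 99th percentile 0.38. With Dio2, r was 0.31 for Slco1c1, 0.25 for Slco1a4, -0.13 for Crym and -0.33 for Slc7a8, so none of these 4 was among the closest. For Slco1c1 the closest gene was Slco1a4 (0.76), followed by S100a16, Tspan3, Serpine2 and Apod (0.75 to 0.72). For Slco1a4 the closest were Pcca (0.78), Aldh1a1 (0.77), Col9a2 (0.76), Slco1c1 (0.76) and Skp1a (0.76). Within the rest the r between Slco1c1 and Slco1a4 was 0.53. None is given for osteoblasts, where Slco1a4 was not detected. These r describe cells of 1 collection that differ in class and depth, and carry no p.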

How the data were processed

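Libraries of 46 single cells were made with a full-length cDNA kit (SMART-Seq v4), per the labels' protocols. The submitters' processing notes name STAR 2.7.3a, bcl2fastq 2 and the build GRCm38 (mm10). Which counter and annotation were used, and whether strand was, is not given in the sources. The authors deposited CPM for 29871 genes, and the listed genes made up 86.4% to 93.5% of 1000000 per cell. Whole reads were recovered from the CPM steps in 100% of values above 0 (within 0.01 read), but with 1 sample no count test could be run. Cells were put in classes by Ibsp, Otos and C1qb. Detection was set at 10 CPM, for marker genes also at 1% of the gene's mean or more. Shares have exact Clopper-Pearson 95% intervals, and differences are on the log2(CPM + 1) scale, which understates those of low genes. No doublet caller was run, because cells were picked singly. Some cells held markers of other types, such as macrophage 43 with 4 of 8 fibrocyte markers. Of the Otos-high cells, 23, 24 and 29 each held 2 of 5 melanocyte markers, and 24 and 26 each held 2 of 3 glial markers. Cells 36 and 40 of the rest each held 3 of 7 endothelial markers. Whether any cell was mixed was not tested. The named genes are the 8 members, listed hormone genes detected in at least 3 cells and the 5 genes with the highest r. Members, lists and limits were chosen with earlier results of these data known. 1 listed gene is not reported here. Functions were tested on simulated data. Alternatives were other detection limits, thinning, other class limits, pseudocounts and totals. Python 3.11.15, numpy 2.4.6, pandas 2.3.3 and scipy 1.17.1 were used. Of the 8 members, 6 had an upstream window in RefSeq.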

Additional observations from a re-analysis of the deposited data

Results flagged for a closer look

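Among the 9 Otos-high cells, cell 28 had Crym at 318.1 CPM, far above the next highest value of 79.7 CPM. Outside this class, cells 19 and 21 of the rest had Crym at 273.2 and 181.9 CPM. Among the 4 macrophages, cell 45 had Slc16a10 at 154.6 CPM, against 9.10 CPM in the next highest. Both stood out by the size of the gap to the nearest cell relative to the range of the class. Such a gap was looked for in 7 combinations of class and gene. The rate of about 1 in 20 that chance gives among single samples of one kind does not apply to these cells. Cells of a class are not replicates, so this is a description and no test, and Crym in Otos-high cells was split between 5 cells at or below 0.559 CPM and 4 at 74.1 CPM or more. The classes are groups of cells made from the data and not groups of the study.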

How the results depend on the processing

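With a limit of 1 CPM, Dio2 was found together with Slco1c1 in 30 cells, with Slco1a4 in 23 and with Slc7a8 in 10. The first 2 counts include trace values, because all 46 cells had Slco1c1 at 1 CPM or more. With a limit of 1% of each gene's mean, and at least 1 CPM, Dio2 was detected in 30 cells, together with Slco1c1 in 25, Slco1a4 in 20 and Slc7a8 in 10. With a limit of 100 CPM, Dio2 was detected in 13 cells, together with Slco1c1 in 11, Slco1a4 in 8 and Slc7a8 in 2. With a pseudocount of 10, the genes higher in Otos-high cells than in the rest by 2 log2 units numbered 1 (Slco1a4 at 1.91), and the genes lower numbered 2 in osteoblasts (Crym at -1.04) and 2 in macrophages (Dio2 at -1.65). By Spearman's rho, 0 of the 5 genes most like Dio2 remained among the first 5, so that list depends on the measure. The cause was not tested. Thinning, other class limits and another total left the counts of cells with Dio2 and Slco1c1, Slco1a4 or Slc7a8 and of genes per class within 1.5 times, where these were recomputed. So did leaving out 5 cells of the rest with 3 or more osteoblast markers, chosen after seeing the data, but Dio2 and Slc7a5 were then together in 1 cell. Leaving out the macrophages could not change the counts with Dio2, because no macrophage had Dio2 at 10 CPM. It did lower the share differences, to 9.84 points for Slco1c1 and 12.6 for Slco1a4. Halving or doubling the limits of Ibsp and C1qb could move no cell, because no value lay between the halved and the doubled limit. Of the other recomputed values, for single genes and classes, 177 stayed within their limit, 28 moved and 0 reversed. Only class differences of at least 2 log2 units could be called reversed. In 90 of 90 recomputed class differences of single genes the value moved by less than 1 SD over cells. That limit is wide, for example 2.16 log2 units for Slco1c1 and 3.13 for Crym between Otos-high cells and the rest. A difference could thus fall below 2 within it, as that of Crym in osteoblasts did. No paired analysis was possible because the labels give 1 group. Thinning left Dio2 detected in 23 cells. The 7 cells with Dio2 between 1 and 10 CPM had 7 to 49 Dio2 reads.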

Other observations

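The type 2 deiodinase is a selenoprotein that is marked for degradation by ubiquitin. Of 4 genes of this turnover, Wsb1, part of a ubiquitin ligase, was in 22 of 46 cells, with 9 of 23 Dio2-detected cells and 13 of 23 others. All 4 macrophages held Wsb1 and none had Dio2. Without them Wsb1 was in 9 of 23 Dio2-detected cells and 9 of 19 others (39.1% and 47.4%). Usp33, a deubiquitinase that acts on the enzyme, was in 8 of 23 Dio2-detected cells and 3 of 23 others. This difference of 21.7 points stands beside 10.8% of 10295 genes with a share at least 20 points higher. The other deubiquitinase gene, Usp20, was in 3 of 23 Dio2-detected cells and 0 of 23 others, and the ligase gene March6 in 6 of 23 and 3 of 23. The intervals overlapped for all 4 genes. For Usp20, found in 3 cells that all had Dio2, they overlap even at this most uneven split, so the overlap says nothing there.

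Of 6 listed genes needed to insert selenocysteine into proteins, 5 had a row under their symbol, and each was seen in a minority of cells. Pstk, a kinase of the selenocysteine tRNA, was in 11 of 23 Dio2-detected cells and 7 of 23 others. The elongation factor gene Eefsec was in 6 of 23 Dio2-detected cells and 7 of 23 others. For Secisbp2, which encodes a binding protein of selenoprotein mRNAs, the counts were 6 of 23 and 8 of 23. Sephs2 was in 4 of 23 and 7 of 23, and Sepsecs in 2 of 23 and 2 of 23. The largest of these differences was 17.4 points (Pstk). Of 10295 genes, 10.8% had a share at least 20 points higher and 3.8% a lower one. Without the 4 macrophages, none of which had Dio2, Sephs2 was in 4 of 23 Dio2-detected cells and 3 of 19 others (17.4% and 15.8%), so its direction turned, and Sepsecs was in 2 of 23 and 1 of 19.

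An annotated transcript on the opposite strand at the Dio2 start, Gm26512, was detected in 4 cells, all with Dio2, at up to 41.2 CPM. Without knowledge of strand its reads and those of Dio2 cannot be told apart where the genes overlap.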
